A study of Mus musculus with 24 samples.

Results

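The CCR4-NOT complex and Tnks1bp1 were examined in mouse E14 embryonic stem cells as 10 genes of the 13504 in a polysome sequencing comparison. They were taken by symbol: the scaffold gene Cnot1, the genes Cnot2, Cnot3, Cnot10 and Cnot11, the catalytic genes Cnot6, Cnot6l, Cnot7 and Cnot8, and Tnks1bp1, whose protein co-purifies with the complex. All 10 symbols were measured. The set was chosen by the fold change of Tnks1bp1 in Rps26Tir1 cells, so values of that line are a description and support nothing further.

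Both lines carried RACK1 with an auxin-inducible degron (genotype label RACK1-AID). RACK1 is a scaffold protein of the small ribosomal subunit. Rps26Tir1 cells, the Ribo-Tweezer line, are named for TIR1 joined to the small-subunit protein RPS26, and FreeTir1 cells, the control line, for TIR1 that is not. TIR1 is a plant F-box receptor that, once auxin is bound, hands a degron-tagged protein to the ubiquitin system. Cells of each line received indole-3-acetic acid (IAA, the natural auxin) or DMSO, its vehicle, for 12 h, and polyadenylated RNA of free, low-translation and heavy-translation fractions was sequenced in 2 replicates, 24 libraries in all. The labels do not say whether replicates were separate cultures or whether a line was 1 clone, so p-values measure the spread between these libraries, which may be technical.

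CCR4-NOT is the main cytoplasmic deadenylase: it shortens poly(A) tails, which lowers translation and opens an mRNA to decapping and decay. CNOT1 is the scaffold on which the other subunits assemble. The catalytic subunits come in paralogous pairs that exclude each other, CNOT6 or CNOT6L of the exonuclease-endonuclease-phosphatase family and CNOT7 or CNOT8 of the DEDD family. In yeast, the Not module also docks on ribosomes that decode slowly, which ties the complex to translation speed.

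Each gene had 1 deposited log fold change per line, read here as log2, together with an average expression over libraries. The header does not say which fractions entered the fold change or whether IAA was its numerator, so values are called positive or negative; under the usual order, positive means higher with IAA. Values per library were not used here, so no level per fraction, SD or read depth stands behind a gene, and mRNA amount cannot be told apart from ribosome loading, nor fewer cells of a kind from less RNA per cell. All 15 embryonic stem cell markers were measured, with average expression of 6.03 to 10.8 (Dppa5a highest). Of 12 fibroblast feeder markers 6 were measured, at -1.26 to 5.36, and of 12 lineage markers 11, at -1.24 to 3.07. Of the feeder markers 4 of 6 were positive in Rps26Tir1 cells (median 0.20) and 2 of 6 in FreeTir1 cells (median -0.06), and of the lineage markers 7 of 11 (median 0.15) and 4 of 11 (median -0.07). In Rps26Tir1 cells 1 of the 6 feeder markers, Col1a1, and 1 of the 11 lineage markers, Eomes, passed, against 1.64% of all genes (0.541% negative). They stood at -1.42 and -0.62 with adjusted p of 0.0254 and 0.0445 in the authors' deposited table, against the sign of most genes on their lists. Their average expression, 0.15 and 2.74, was under the minimum of 3 used below. At an unadjusted p under 0.05 in that line, 1 feeder marker was positive and 2 were negative. Of the lineage markers, 2 were positive and 3 negative at that level, against 9.55% and 6.72% of all genes. In FreeTir1 cells 0 of these markers and 0 of all genes passed. The part of these markers in the values below was not tested.

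The start codon and its neighbours, which ribosomes read when they choose where to begin, are shown for the members with the largest value in either line and for the pair with a full match to the favoured context. Each sequence runs 5′ to 3′ from 9 bases before the start codon to the base after it, on the transcript that the deposited row names (GENCODE M21, GRCm38). Capitals mark the third base before the start codon, the codon itself and the base after it.
Tnks1bp1: ccctatGtgATGA
Cnot1: caaccaGcaATGA
Cnot6l: cggaggAgaATGA
Cnot11: gcgaggTtgATGC
Cnot3: gcagggAagATGG
Cnot10: ggcgggAagATGG
A purine in the upstream position was present in 8 of the 10 members, against 86.1% of the 13043 genes with such a window. A G after the start codon was present in 3 of 10, against 52.7% of all genes. Both features occurred together in 2 of 10, Cnot3 and Cnot10, against 45.2% of all genes. Tnks1bp1 has the purine and lacks the G, and Cnot11 lacks both.

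Tnks1bp1 was the member that stood apart in Rps26Tir1 cells. Its product, also called TAB182, binds tankyrase and associates with CCR4-NOT. In the authors' deposited table Tnks1bp1 had a value of 0.87 in Rps26Tir1 cells, with a standard error of 0.182 worked back from its p-value and adjusted p = 0.0145. That is a 1.82-fold difference, with a 95% interval of 1.41 to 2.36. In FreeTir1 cells per the authors' deposited table Tnks1bp1 stood at 0.03 (standard error 0.167) at adjusted p = 0.991, which is 1.02-fold with an interval of 0.803 to 1.29. The intervals of the lines do not overlap, but the Rps26Tir1 value is the one that chose the set. The limma-type test of the difference between the lines, described below, gave adjusted p = 0.377.

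Tnks1bp1 was 1 of 10 members with adjusted p under 0.05 in Rps26Tir1 cells, where 1.64% of all genes passed, 1.1% with a positive value as for Tnks1bp1. It ranked 44 by p-value among the 13504 genes listed in the authors' deposited table, which may leave out genes that they adjusted over. Of the listed genes that passed, 31 had a larger positive value than Tnks1bp1. The average expression of Tnks1bp1, 3.08, was the lowest of the 10 and exceeded that of 37.1% of all genes, and its standard error was the largest of the members in each line. Tnks1bp1 lies at chr2:85048022-85073048 (GRCm38, plus strand), and no other annotated gene overlaps it. The named transcript has 12 exons, 5747 bases and 5163 coding bases, a longer coding region than 96.2% of all genes. None of its 5717 distinct stretches of 31 bases occurs in a transcript of another gene.

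**Figure D1:**
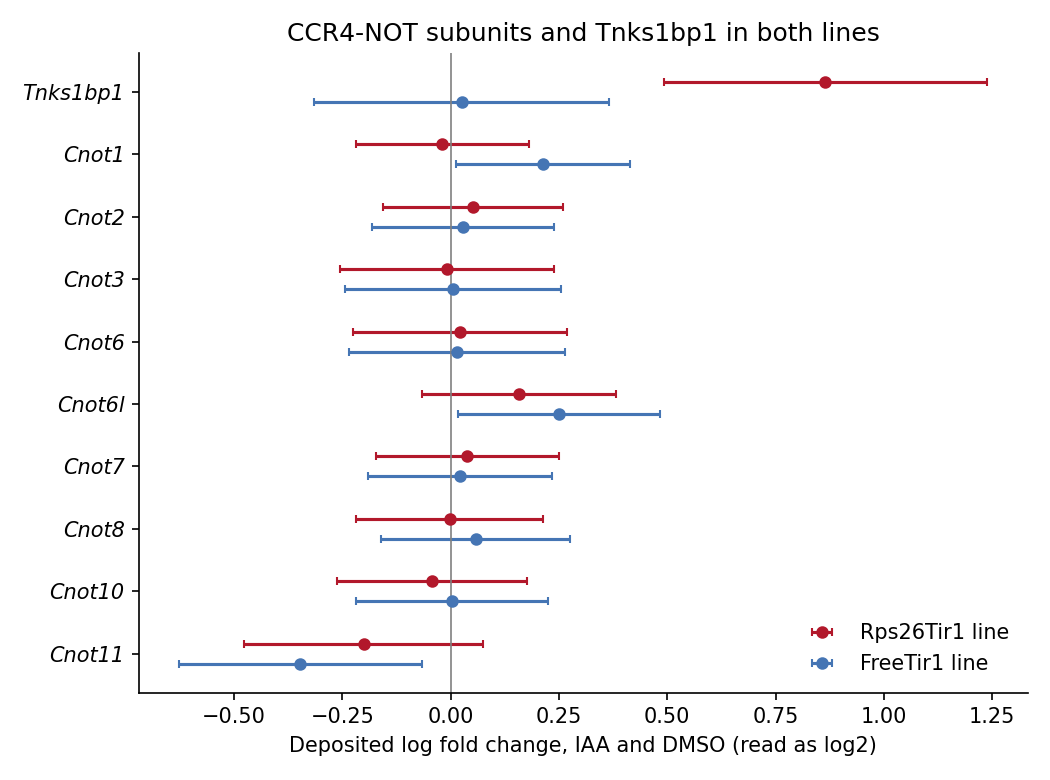
Deposited log fold change between IAA and DMSO (horizontal axis, read as log2) for Tnks1bp1 and the 9 CCR4-NOT subunits, with Rps26Tir1 cells above FreeTir1 cells for each gene; bars are 95% intervals from standard errors worked back from the deposited p-values. Tnks1bp1 stands at 0.87 in Rps26Tir1 cells and 0.03 in FreeTir1 cells, and the subunits lie between -0.20 and 0.16 in Rps26Tir1 cells.

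None of the 9 subunits passed in Rps26Tir1 cells, against 1.64% of all genes. Their log fold changes in the authors' deposited table ran from -0.20 (Cnot11) to 0.16 (Cnot6l) with a median of -0.00, against a median of 0.01 over all genes. Their adjusted p ran from 0.484 to 0.995 in the authors' deposited table, and none had an unadjusted p under 0.05, against 16.3% of all genes. Their standard errors of 0.0979 to 0.135 bound what could have gone unseen: the lowest lower bound was 0.719-fold (Cnot11) and the highest upper bound 1.30-fold (Cnot6l).

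The scaffold gene Cnot1 (chr8:95719451-95807464, minus strand) stood at -0.02 in Rps26Tir1 cells (standard error 0.0979, adjusted p = 0.952) in the authors' deposited table. In FreeTir1 cells per the authors' deposited table Cnot1 had 0.21 (standard error 0.0985), with an unadjusted p of 0.0387 and adjusted p = 0.662. Its named transcript of 8364 bases is longer than those of 96.2% of all genes and has the highest average expression of the members, 7.15. Of its 31-base stretches 10.7% also occur in other genes, 811 of the 8334 in the gene model Gm6158, and how the authors counted such reads is not stated. Opposite-strand transcripts also overlap 132 exonic bases of Cnot1 (4930513N10Rik) and 232 of Cnot2 (5330438D12Rik).

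The proteins of Cnot2 and Cnot3 pair to form the NOT module with the C-terminal part of CNOT1. Cnot2 (chr10:116485161-116581511, minus strand) stood at 0.05 in Rps26Tir1 cells and 0.03 in FreeTir1 cells per the authors' deposited table (adjusted p 0.850 and 0.981). Cnot3 (chr7:3645268-3661109, plus strand) stood at -0.01 in Rps26Tir1 cells and 0.01 in FreeTir1 cells per the authors' deposited table (adjusted p 0.985 and 0.997). Neither value exceeded its standard error, which was 0.102 for Cnot2 and 0.121 for Cnot3 in Rps26Tir1 cells. Cnot3 is the member whose value is least certain to be its own: 27.4% of its 31-base stretches also occur in the gene model Gm9207, and 433 exonic bases overlap Leng1 on the opposite strand.

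Cnot10 and Cnot11 encode subunits that bind each other and dock at the N-terminal part of CNOT1. Cnot10 (chr9:114585878-114640184, minus strand) stood at -0.04 in Rps26Tir1 cells and 0.00 in FreeTir1 cells per the authors' deposited table (adjusted p 0.886 and 0.998). Cnot11 (chr1:39534992-39546889, plus strand) was the lowest member in each line, at -0.20 (standard error 0.135, adjusted p = 0.484) in Rps26Tir1 cells and -0.35 (standard error 0.137, adjusted p = 0.556) in FreeTir1 cells per the authors' deposited table. Its unadjusted p was 0.147 in Rps26Tir1 cells and 0.0168 in FreeTir1 cells per the authors' deposited table. Cnot11 lay below all but 15.1% of genes in Rps26Tir1 cells and all but 6.72% in FreeTir1 cells.

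The catalytic pairs are set side by side below, each over 60 coding bases around the longest run that the partners share, because reads from such runs decide whether paralogues can be counted apart. Capitals mark bases that differ between partners, and positions count from the first base of the start codon on the transcripts the deposited rows name.
Cnot6: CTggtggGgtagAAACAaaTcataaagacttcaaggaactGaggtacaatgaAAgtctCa
Cnot6l: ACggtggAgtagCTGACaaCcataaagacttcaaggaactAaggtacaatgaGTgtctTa
Cnot7: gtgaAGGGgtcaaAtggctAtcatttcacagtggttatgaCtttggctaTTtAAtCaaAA
Cnot8: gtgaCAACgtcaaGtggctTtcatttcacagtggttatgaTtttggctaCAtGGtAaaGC
The windows start at coding base 1280 of Cnot6, 1274 of Cnot6l, 443 of Cnot7 and 443 of Cnot8. Cnot6 and Cnot6l differ at 13 of the 60 bases and are identical at 73.3% of 1653 aligned coding bases. Cnot7 and Cnot8 differ at 14 of the 60 bases and are identical at 70.9% of 858 aligned coding bases. The longest identical run was 20 bases in each pair, and no 31-base stretch was shared by the partners.

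Within the CNOT6 pair, Cnot6 (chr11:49671503-49712723, minus strand) stood at 0.02 in Rps26Tir1 cells and 0.01 in FreeTir1 cells per the authors' deposited table (adjusted p 0.955 and 0.991). Cnot6l (chr5:96070333-96164171, minus strand) was the highest subunit in each line, at 0.16 (standard error 0.110, adjusted p = 0.503) in Rps26Tir1 cells and 0.25 (standard error 0.114, adjusted p = 0.649) in FreeTir1 cells per the authors' deposited table. Its unadjusted p was 0.161 in Rps26Tir1 cells and 0.0361 in FreeTir1 cells per the authors' deposited table.

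Neither gene of the CNOT7 pair passed in either line, against 1.64% of all genes in Rps26Tir1 cells and 0 in FreeTir1 cells. Cnot7 (chr8:40492540-40515847, minus strand) stood at 0.04 in Rps26Tir1 cells and 0.02 in FreeTir1 cells per the authors' deposited table (adjusted p 0.895 and 0.985). Cnot8 (chr11:58104153-58118594, plus strand) stood at -0.00 in Rps26Tir1 cells and 0.06 in FreeTir1 cells per the authors' deposited table (adjusted p 0.995 and 0.960). The 95% intervals were 0.887 to 1.19-fold for Cnot7 and 0.859 to 1.16-fold for Cnot8 in Rps26Tir1 cells. Of the 31-base stretches of Cnot8 15.2% occur in the gene model Gm18860, and 247 exonic bases of Cnot7 overlap Zdhhc2 on the opposite strand, which cannot be separated unless counting used strand.

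In FreeTir1 cells, whose values may come from the same fit as those of Rps26Tir1 cells and were also known when the set was chosen, 0 of the 10 members and 0 of all genes had adjusted p under 0.05 in the authors' deposited table. At an unadjusted p under 0.05 there were 3 members, Cnot1, Cnot6l and Cnot11, against 6.69% of all genes. Of these, Cnot1 and Cnot6l were positive, against 2.72% of all genes, and Cnot11 negative, against 3.98%, and their adjusted p ran from 0.556 to 0.662. The signs of the lines matched for 6 of the 10 members, against 8406 of 13504 genes.

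**Figure D2:**
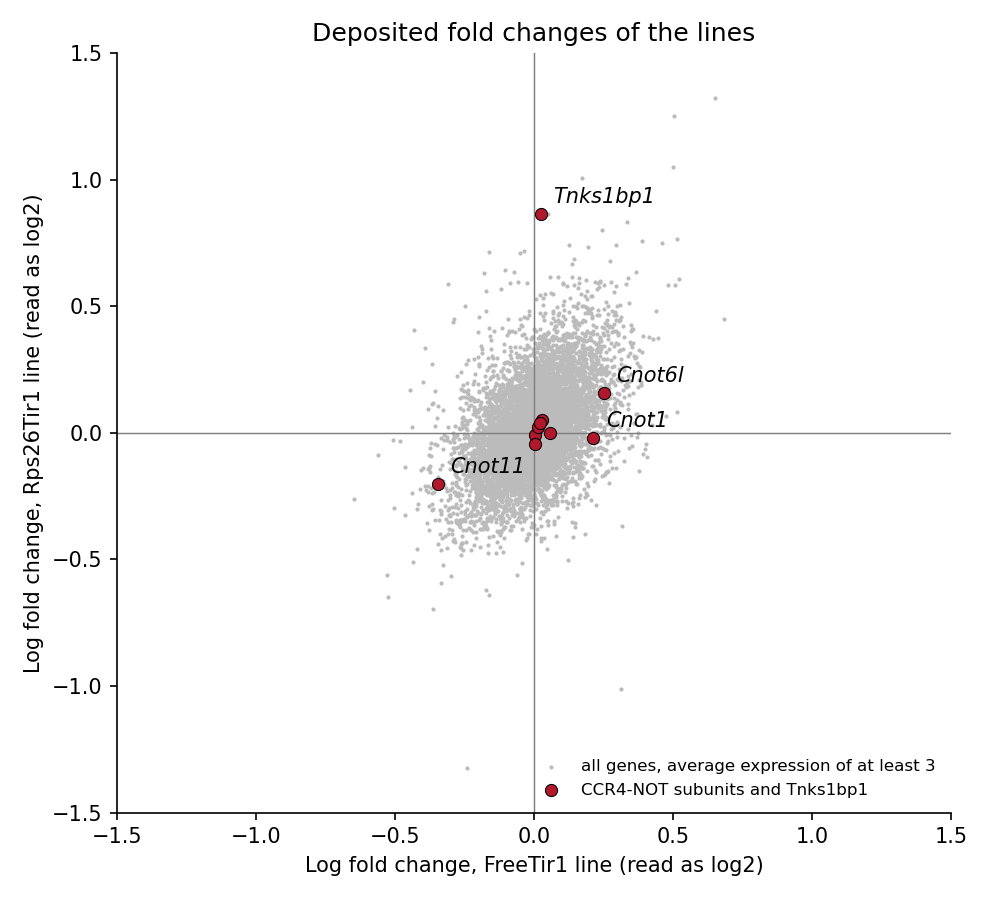
Deposited log fold change in Rps26Tir1 cells (vertical axis) against FreeTir1 cells (horizontal axis), both read as log2, for the 8633 genes at or above an average expression of 3 (grey), as far as they lie within the axes, and the 10 members (red). Tnks1bp1 lies at 0.87 in Rps26Tir1 cells and 0.03 in FreeTir1 cells, away from the subunits, of which Cnot11, Cnot1 and Cnot6l lie farthest from 0 along the FreeTir1 axis.

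Whether the effect of treatment differed between the lines was tested by the difference of the log fold changes, Rps26Tir1 minus FreeTir1, over its standard error, with Benjamini-Hochberg adjustment over all 13504 genes in a limma-type moderated statistic. Tnks1bp1 differed by 0.84 (standard error 0.247), with a 95% interval of 0.33 to 1.35, an unadjusted p of 0.00200 and adjusted p = 0.377. It was thus not past the threshold over all genes, and since the gene was chosen for its Rps26Tir1 value, the choice by itself favours a large difference. Tnks1bp1 was the 1 member of 10 with an unadjusted p under 0.05, against 6.18% of all genes (4.15% positive, as it was, and 2.03% negative), and 0 members had adjusted p under 0.05, against 0.00741% of all genes.

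Among the subunits the largest difference was that of Cnot1, -0.23 (standard error 0.139) at adjusted p = 0.940 in the limma-type statistic. Its 95% interval was -0.52 to 0.05. Cnot11 had 0.15 with an interval of -0.25 to 0.54, and Cnot6l -0.09 with an interval of -0.42 to 0.23. The remaining 6 subunits had differences between -0.06 and 0.02, and all 9 intervals included 0. Differences up to the ends of these intervals are not excluded at this precision, and the data do not show that the lines act alike.

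**Figure D3:**
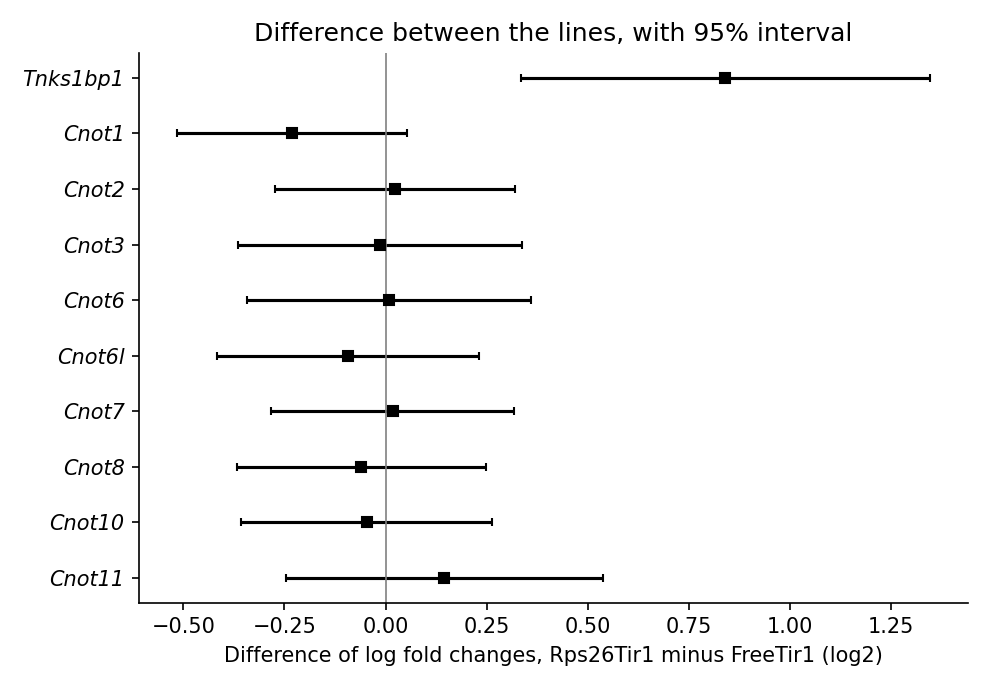
Difference of the log fold changes between the lines, Rps26Tir1 minus FreeTir1 (horizontal axis, log2), for Tnks1bp1 and the 9 subunits, with 95% intervals. The interval of Tnks1bp1 runs from 0.33 to 1.35, and those of the 9 subunits include 0. The intervals are not adjusted for the number of genes. Tnks1bp1 had adjusted p = 0.377 in the limma-type statistic, and its Rps26Tir1 value chose the set.

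Levels of the members were compared per length, by taking log2 of the transcript length in kilobases from the average expression, which holds only if the deposited average is per library and not already per length. On that log2 scale the Cnot8 level was 4.88, that of Cnot7 4.85, Cnot3 4.54, Cnot2 4.23, Cnot1 4.08 and Cnot10 3.92. Lower levels per length were those of Cnot6 at 2.82, Cnot11 at 2.76, Cnot6l at 1.87 and Tnks1bp1 at 0.55. The CNOT7 paralogues were therefore close to each other on this scale, and Cnot6 was above Cnot6l. The average is over libraries and may pool fractions, lines and treatments, so it need not follow the mRNA level of the cells. For Cnot3 and Cnot8, 27.4% and 15.2% of the 31-base stretches also occur in other gene models. No spread over libraries was computed for these levels, so neighbours in the order are not separated.

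The members also differ in mRNA structure. Tnks1bp1 combines a long coding region with a 3′ untranslated region of 464 bases, shorter than those of most genes (30.9% are shorter still), and has the highest GC content of the members, 58.8%. Cnot6 has the longest 3′ untranslated region of the members, 3690 bases, longer than in 92.6% of genes. The 5′ untranslated regions ran from 37 bases in Cnot11 to 372 bases in Cnot6, and those of Cnot6 and Cnot7 each hold 4 ATG triplets upstream of the start codon. Tnks1bp1 has 1 such triplet, Cnot1 2, and Cnot8, Cnot10 and Cnot11 have 0.

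Long transcripts had slightly positive medians in each line, so Tnks1bp1, Cnot6 and Cnot1 were read against genes of like length. Genes at or above an average expression of 3 were put into 10 bins by length, and the bin with a median length of 5425 bases had a median log fold change of 0.08 in Rps26Tir1 cells and 0.03 in FreeTir1 cells per the authors' deposited table. Tnks1bp1, at 5747 bases, was above that median in Rps26Tir1 cells, whereas Cnot6, at 5736 bases, was below it in each line. With the trend in length and expression removed, Tnks1bp1 stood at 0.81 in Rps26Tir1 cells with adjusted p = 0.0280 in the limma-type statistic. Tnks1bp1 was chosen for its Rps26Tir1 value, so that p-value supports nothing further. The longest member, Cnot1, was below the median of the longest bin in Rps26Tir1 cells, 0.12, and above that in FreeTir1 cells, 0.09.

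**Figure D4:**
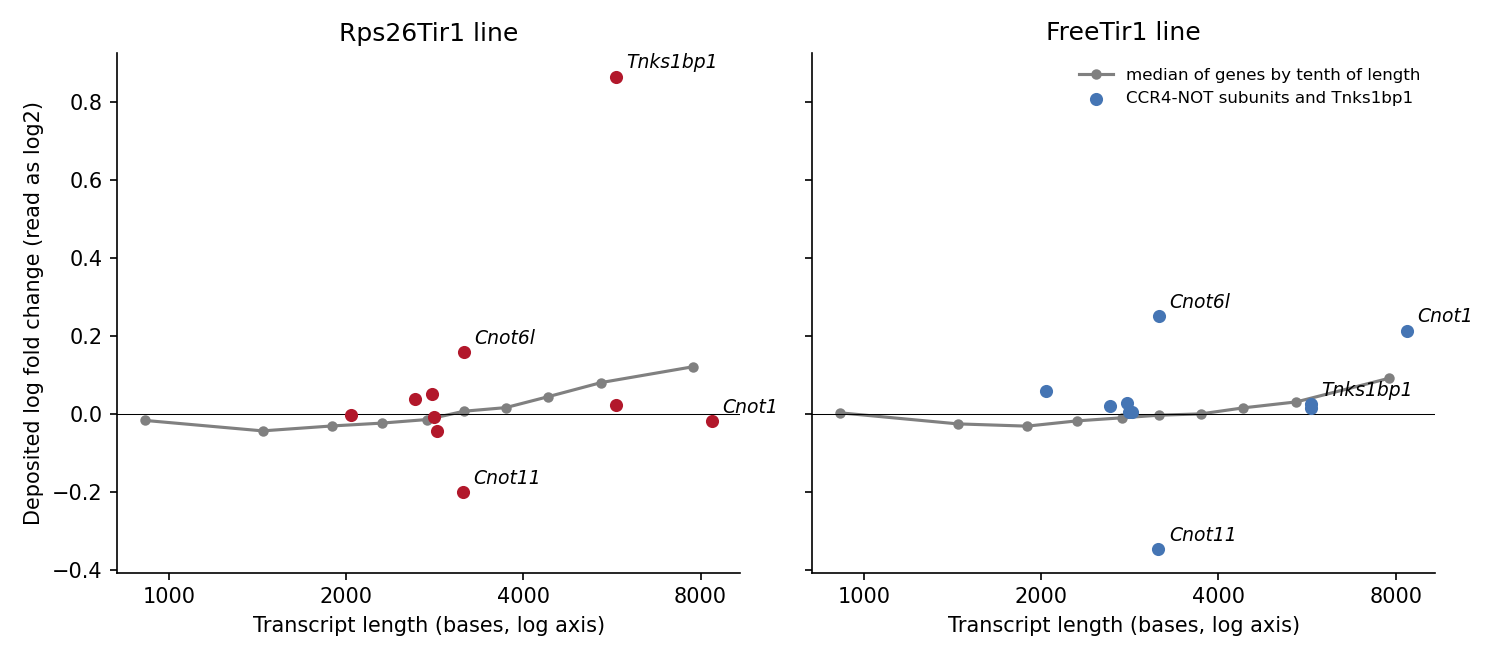
Deposited log fold change (vertical axis, read as log2) against transcript length in bases (log axis) for the 10 members (coloured points) in Rps26Tir1 cells (left) and FreeTir1 cells (right), with the median of genes at or above an average expression of 3 in each of 10 length bins (grey line). Tnks1bp1 and Cnot6 have nearly the same length and stand at 0.87 and 0.02 in Rps26Tir1 cells.

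By a fixed rule, the genes most like Tnks1bp1 were the 3 nearest to it in the fold changes of both lines among 3579 genes with average expression within 1 of its own. They were Zan, which encodes the sperm protein zonadhesin, Klhl18, a substrate adaptor of cullin ubiquitin ligases, and Mfsd4a, a predicted membrane transporter. Their log fold changes in Rps26Tir1 cells per the authors' deposited table were 0.86, 0.82 and 0.81, with adjusted p of 0.183, 0.132 and 0.0189. In FreeTir1 cells per the authors' deposited table they stood at 0.05, 0.04 and 0.04. Likeness here rests on only 1 value per line and says nothing of other conditions.

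The other genes of the pathway were taken from fixed lists. These were set against all genes and not matched for transcript length. Medians of the length bins ran from -0.04 (median length 1442.5 bases) to 0.12 (7778 bases) in Rps26Tir1 cells. In FreeTir1 cells they ran from -0.03 (1891 bases) to 0.09 (7778 bases). The part of length in the signs and medians of the lists was not tested. Neither of the remaining complex subunits passed in either line, against 1.64% of all genes in Rps26Tir1 cells and 0 in FreeTir1 cells. Cnot9, whose product binds the scaffold and recruits silencing factors, stood at -0.03 in Rps26Tir1 cells and 0.02 in FreeTir1 cells per the authors' deposited table. Cnot4, a ubiquitin ligase gene, stood at 0.11 and 0.04 in the Rps26Tir1 and FreeTir1 lines per the authors' deposited table (adjusted p 0.712 and 0.975). Of the other deadenylases, 0 of 8 passed in either line, against 1.64% of all genes in Rps26Tir1 cells and 0 in FreeTir1 cells, the medians being 0.01 for Rps26Tir1 and 0.09 for FreeTir1. The smallest p-values among them belonged to Noct, a circadian deadenylase relative, with 0.24 and 0.16 in the Rps26Tir1 and FreeTir1 lines per the authors' deposited table, and Angel2 -0.15 and -0.11.

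Factors that bring CCR4-NOT to chosen mRNAs had 18 of 27 measured genes positive for Rps26Tir1 (median 0.09) and 15 of 27 for FreeTir1 (median 0.08). Of all 13504 genes, 7155 were positive in Rps26Tir1 cells (median 0.01) and 6569 in FreeTir1 cells (median -0.00). Only 1 gene of the 27 passed in the authors' deposited table, against 1.64% of all genes, Btg2, an antiproliferative adaptor of the CNOT7 pair, at 0.44 in Rps26Tir1 cells (adjusted p = 0.0370) and 0.08 in FreeTir1 cells (adjusted p = 0.938). At an unadjusted p under 0.05, 6 were positive and 1 negative in Rps26Tir1 cells, against 9.55% and 6.72% of all genes. In FreeTir1 cells 2 were positive and 2 negative at that level, against 2.72% and 3.98%. Among them Cpeb4, a cytoplasmic polyadenylation factor named after its values were seen, had 0.36 in Rps26Tir1 cells (adjusted p = 0.275) and a larger value, 0.84, in FreeTir1 cells (adjusted p = 0.185) per the authors' deposited table. The difference between the lines was 0.36 for Btg2 (standard error 0.159) at adjusted p = 0.692 in the limma-type statistic.

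Among proteins that bind the poly(A) tail and their regulators 1 of 11 passed, against 1.64% of all genes (1.1% positive), namely Larp4b, a La-related protein gene, at 0.39 in Rps26Tir1 cells (adjusted p = 0.0460) and 0.21 in FreeTir1 cells (adjusted p = 0.681) in the authors' deposited table. Decapping and 5′-to-3′ decay factors had 0 of 19 past the threshold in either line, against 1.64% of all genes in Rps26Tir1 cells and 0 in FreeTir1 cells. Dcp2, the decapping enzyme, stood at 0.42 (adjusted p = 0.0742) in Rps26Tir1 cells and 0.27 (adjusted p = 0.648) in FreeTir1 cells per the authors' deposited table, and Ddx6, a helicase that CNOT1 binds, at 0.27 and 0.19. For 3′-to-5′ decay, 12 of 17 exosome and Ski genes were negative in Rps26Tir1 cells and 13 of 17 in FreeTir1 cells, with medians of -0.08 and -0.04, against 6349 and 6935 negative of all 13504 genes. None of the 17 passed, against the same 1.64% and 0 of all genes. The smallest p-values among them were those of Exosc1 and Exosc9, at -0.18 and -0.22 in Rps26Tir1 cells, with adjusted p of 0.356 and 0.357 in the authors' deposited table.

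Enzymes that extend tails or add uridines, which oppose or follow deadenylation, had 7 of 8 measured genes positive for Rps26Tir1 (median 0.19) and 3 of 8 for FreeTir1 (median -0.03), against 7155 and 6569 positive of all 13504 genes. None passed in either line, against 1.64% of all genes in Rps26Tir1 cells and 0 in FreeTir1 cells. No gene of the list passed the test of the difference between the lines, against 0.00741% of all genes. Tent4b and Tut7 had the smallest p-values, at 0.21 and 0.19 with adjusted p of 0.384 and 0.422 in Rps26Tir1 cells per the authors' deposited table. Tankyrases and their partners, the other setting in which Tnks1bp1 is known, had 6 of 13 positive for Rps26Tir1 (median -0.00) and 6 of 13 for FreeTir1 (median -0.02). Of these 13 only Amotl2, an angiomotin gene of Hippo signalling, passed in the authors' deposited table, against 1.64% of all genes in Rps26Tir1 cells and 0 in FreeTir1 cells, at 0.58 in Rps26Tir1 cells (adjusted p = 0.0216) and 0.48 in FreeTir1 cells (adjusted p = 0.352). The tankyrase genes Tnks and Tnks2 stood at 0.22 and -0.06 in Rps26Tir1 cells and at 0.17 and -0.16 in FreeTir1 cells per the authors' deposited table.

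**Figure D5:**
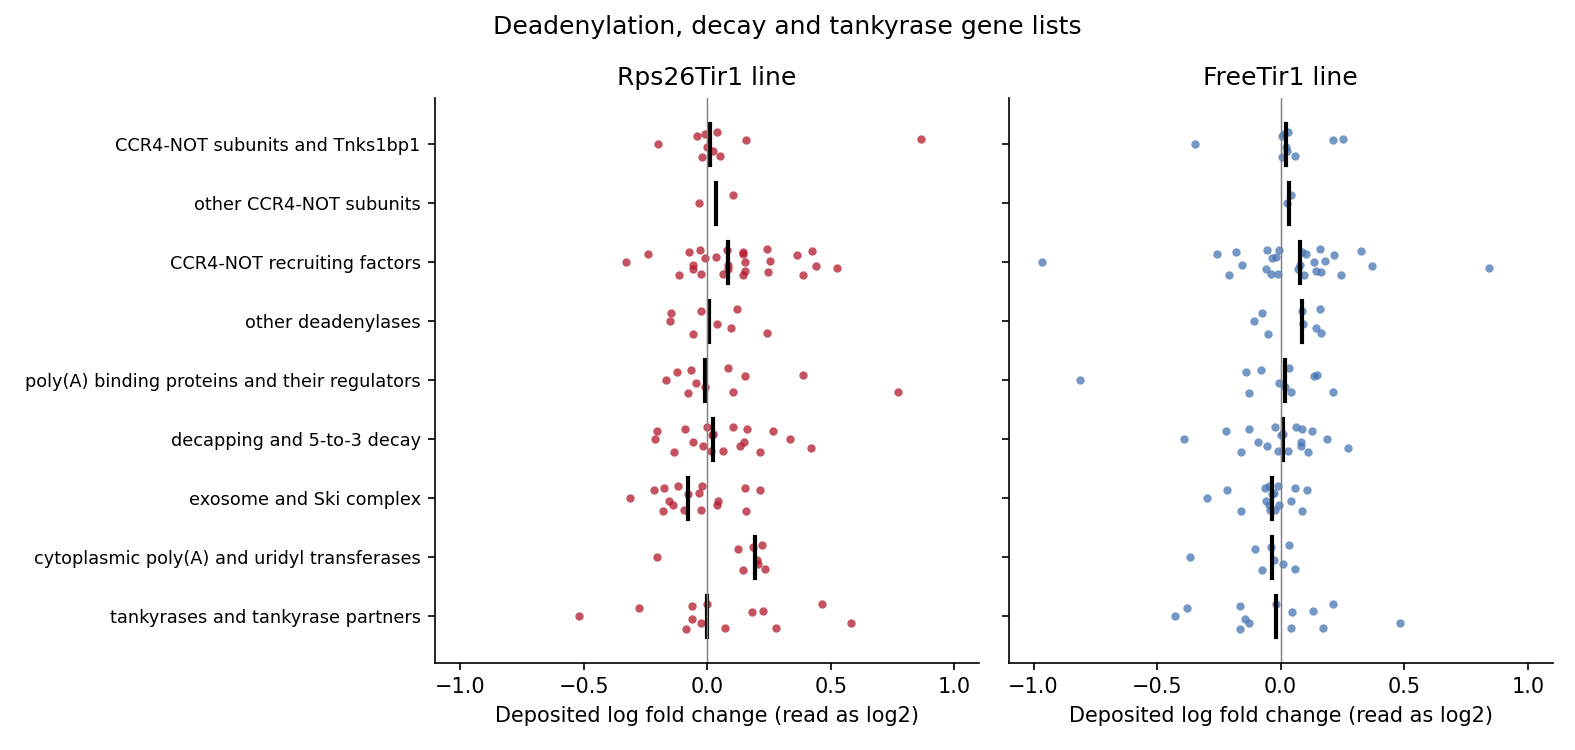
Deposited log fold change (horizontal axis, read as log2) of each measured gene in 9 lists, in Rps26Tir1 cells (left) and FreeTir1 cells (right); black bars are list medians. In the top row the 9 subunits lie near 0 for Rps26Tir1 and Tnks1bp1 at 0.87; the poly(A) and uridyl transferases have medians of 0.19 in Rps26Tir1 cells and -0.03 in FreeTir1 cells.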

How the data were processed

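The authors' deposited comparison table was analysed; the aligner, counting method, genome build and model were not given in the sources used here. Per the file headers it holds, for each line, a log fold change and average expression, taken as log2 since limma, whose results tables use such headings, reports that scale, together with a p-value, raw and adjusted. For Rps26Tir1 cells the ratio of the smallest adjusted to the smallest raw p-value is 15864, taken as the number of genes the authors adjusted over. The ratio for FreeTir1 cells was lower. If 15864 is right, some adjusted genes are missing from the 13504, and ranks and shares here cover only the 13504. Average expression was the same in both columns for all 13504 genes, so both lines may share 1 fit. Standard errors were worked back from the log fold change and p-value with 29 degrees of freedom, picked between 8 and 60 as the value giving the steadiest ratio of standard errors between lines. The difference between the lines takes their errors as independent. The procedure was run on data simulated with 29 degrees of freedom and independent errors, so that run does not test whether the real data meet these assumptions. All transcripts were matched by identifier to GENCODE M21 (GRCm38), which need not be the authors' annotation. No protein table was used here, so paralogues were compared by their coding bases, aligned globally with Biopython 1.88. Genes named were all members, list genes that passed or else the 2 with the smallest p-value in Rps26Tir1 cells, and the 3 genes nearest Tnks1bp1; Tnks, Tnks2, Cpeb4 and the markers Dppa5a, Col1a1, Eomes and Krt18 were named after their values were seen. Members and lists were chosen with earlier results of these data known. Alternatives were other adjustments, an expression minimum of 3, removal of the trend in length and expression, 20 or 60 degrees of freedom, and correlated errors. Replicates could not be left out because no values per library were used. The analysis used Python 3.11.15.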

Additional observations from a re-analysis of the deposited data

How the results depend on the processing

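The count of members past the threshold, 1 in Rps26Tir1 cells and 0 in FreeTir1 cells and for the difference between the lines, was the same under every alternative run. The Rps26Tir1 value of Tnks1bp1 chose the set, so none of the alternatives tests it. For Tnks1bp1 in Rps26Tir1 cells adjusted p ran from 0.0150 to 0.0280. Its difference between the lines had adjusted p of 0.0667 with errors correlated at 0.3, 0.9998 at -0.3 and likewise with average expression of at least 3, and unadjusted p from 0.000343 to 0.00577. With the trend in length and expression removed, uncalled values near 0 changed sign: Cnot6 to -0.0331 in Rps26Tir1 cells, -0.0210 in FreeTir1 cells and -0.0121 for the difference, Cnot8 to 0.0209 in Rps26Tir1 cells, and Tnks1bp1 to -0.0019 in FreeTir1 cells; the cause is the trend subtracted. Of 26 list medians 24 moved by less than the median standard error of their genes when average expression under 3 was left out, and those of feeder and lineage markers in Rps26Tir1 cells changed sign, to -0.07, against 0.20 over all measured, and to -0.40, against 0.15. That step left 2 feeder markers and 1 lineage marker, Krt18, so -0.40 is the value of a single gene. No paired analysis was possible because the table holds no values per replicate. Depth per library is unknown, and precision was lowest for Tnks1bp1, the member with the lowest average expression.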

Other observations

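The neighbourhood of Tnks1bp1 on chromosome 2 was inspected after the values were seen. Within 200 kb of the gene, 5 other genes were in the authors' deposited table. None passed in either line, against 1.64% of all genes in Rps26Tir1 cells and 0 in FreeTir1 cells. Average expression was lowest for Rtn4rl2, -1.09, and P2rx3, -0.17. Ssrp1, a histone chaperone gene that ends just upstream of Tnks1bp1, stood at -0.00 in Rps26Tir1 cells with adjusted p = 0.991 and at 0.04 in FreeTir1 cells (adjusted p = 0.974) per the authors' deposited table. P2rx3, Slc43a1, Slc43a3 and Rtn4rl2 stood at 0.15, 0.01, -0.21 and 0.29 in Rps26Tir1 cells and at -0.07, -0.07, 0.06 and 0.22 in FreeTir1 cells per the authors' deposited table, each adjusted p being at least 0.496. Leng1, which overlaps Cnot3 on the opposite strand, had 0.20 in Rps26Tir1 cells and -0.40 in FreeTir1 cells per the authors' deposited table (adjusted p 0.455 and 0.482).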
